A study of Homo sapiens with 6 samples.

Results

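Interferon-stimulated genes and their regulators were examined in 6 single-colour arrays of cells labelled HSC2, an established human oral squamous carcinoma line. The 52 genes were chosen by symbol, with earlier results of these data known. They run from the receptors through the transcription factors to the antiviral effectors. Of them, 50 were measured by a probe set naming that gene alone, out of 11963 genes measured in this way. STAT2 and TDRD7 were not analysed here, because no probe set carries their symbol alone in the annotation used. Each gene was read from its brightest probe set over all 6 arrays. Total RNA came from cells stably transfected with MALT1 cDNA, full-length and wild-type per the labels (3 arrays), and from cells stably transfected with the vector alone, called mock (3 arrays). MALT1 is a paracaspase of NF-kappaB signalling, and the study looked for its responsive genes. The labels name no promoter for the transgene and do not say whether the stable cells were 1 clone or a pool, or whether replicates were grown apart. The p-values therefore reflect the spread among these arrays alone, possibly a technical one, and precision is limited by there being 3 arrays in each group.

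Interferons are secreted proteins that bind paired receptor chains and, through Janus kinases, activate STAT proteins. After type I interferon, STAT proteins join IRF9 in a complex that binds the interferon-stimulated response element in promoters, and after interferon gamma a STAT dimer binds the gamma-activated sequence. The genes switched on encode sensors of viral RNA, enzymes and binding proteins that block viral replication, and factors that amplify or end the signal, and many are transcribed at a low level in epithelial cells with no infection.

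The arrays went against their labels in several respects. All 3 probe sets for the MALT1 transcript read lower on the arrays labelled MALT1. The one with the largest difference read 128, 124 and 107 there, against 282, 242 and 236 on the arrays labelled mock (adjusted p = 0.0022 in limma). The brightest had a log2 fold change of −0.47 (adjusted p = 0.0104), and the remaining one, at −0.28, did not pass (adjusted p = 0.0969). The positions of the probes were not analysed, and a cDNA without the probed stretch would not be read. Of 16 luminal breast epithelium genes, 15 rose on the arrays labelled MALT1, where their summed signal was 82085 to 90385, against 9149 to 9814 on the arrays labelled mock. KRT19, a keratin of simple epithelia, averaged 12414 ± 567 with the label MALT1 and 1.25 ± 0.07 with the label mock (SD, n = 3 each), the secreted trefoil peptide TFF1 was at least 878-fold higher, and KRT8 had a log2 fold change of 4.89. Of 13 measured squamous epithelium genes, 12 fell, their summed signal being 15923 to 17767 with the label MALT1 and 48641 to 53161 with the label mock. Among them, the log2 fold change was −3.08 for LAMB3, −2.59 for ITGA6 and −2.86 for SERPINB5. Summed leukocyte markers read 123 to 265 on the arrays labelled MALT1, against 130 to 161 on those labelled mock (1 of 10 passing, CD14), with the pan-leukocyte gene PTPRC dim on all 6 arrays, and summed fibroblast markers read 142 to 278 on the arrays labelled MALT1, against 161 to 208 on those labelled mock (1 of 8 passing, LUM, a fall to a dim signal). The epithelial markers divide the arrays exactly as the labels do, so every interferon difference below cannot be told apart from this difference between the cells, nor can fewer cells with a transcript be told apart from less of it per cell. Whether labels were exchanged between the groups, or 1 group came from another cell line, was not tested; every direction given here follows the labels and would turn round if they were exchanged. MALT1 replicate 3 stood apart, with 25.6% of probe sets at or below the level for dim signals, against 31.7% and 31.8% on the other arrays labelled MALT1 and 32.4% to 33.3% on those labelled mock.

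Most of the interferon genes were lower on the arrays labelled MALT1. Of the 50 genes, 30 fell (60.0%), 5 rose (10.0%) and 15 did not pass an adjusted p of 0.05 in limma, which was adjusted over all 22215 probe sets. Over all 11963 genes, 19.2% fell and 21.1% rose. With a change of at least 2-fold on log2(signal + 1) as well, 22 fell (44.0%) and 2 rose (4.0%), where 9.64% of all genes fell and 10.8% rose. The median log2 fold change was −1.01 over the 50 genes (−0.97 with dim genes at their bound) and 0.08 over all genes. The 3 arrays labelled MALT1 lay wholly below the 3 labelled mock in 35 of the genes (70.0%; 25.6% of all genes) and wholly above them in 5 (29.0% of all genes). The 30 that fell were 26 without MALT1 replicate 1, 25 without mock replicate 1 and 31 without MALT1 replicate 3. The 5 that rose were 3 without MALT1 replicate 1, MALT1 replicate 2 or mock replicate 2. A signal counts as dim here at or below 17.6, the highest reading of the bacterial trp control probe sets on any array. That reading came from MALT1 replicate 3. The highest trp readings were 6.13 and 7.53 on the other arrays labelled MALT1 and 7.10 to 14.7 on those labelled mock. IFI27 and IFI44L were dim on all 6 arrays, 3 genes were dim on the arrays labelled MALT1 alone and 1 on the arrays labelled mock alone, and the other 44 were not dim throughout either group.

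**Figure D1:**
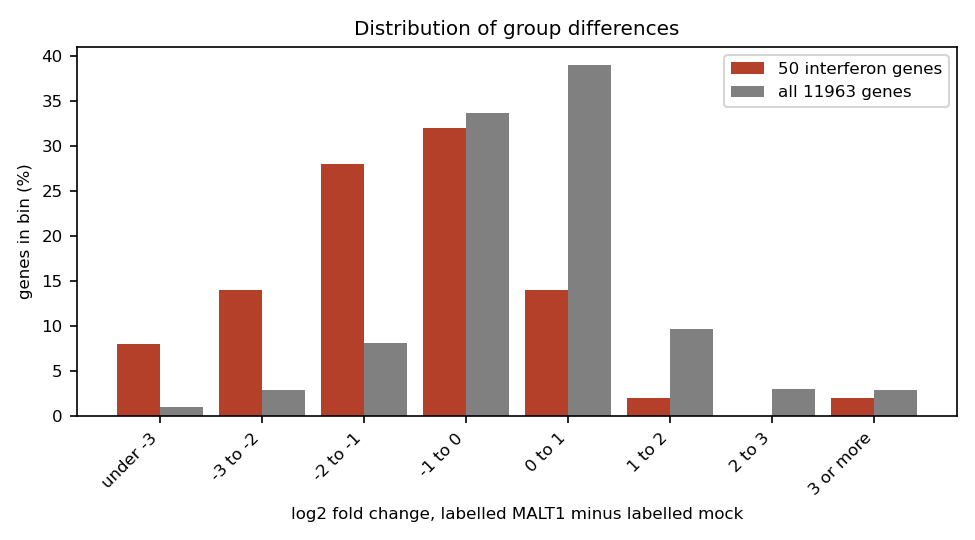
Share of genes (%, vertical axis) in each bin of log2 fold change, labelled MALT1 minus labelled mock (horizontal axis), for the 50 interferon genes (red) and all 11963 genes (grey). Of the interferon genes, 8.0% lay under −3, 14.0% between −3 and −2 and 28.0% between −2 and −1, against 1.03%, 2.88% and 8.08% of all genes.

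**Figure D2:**
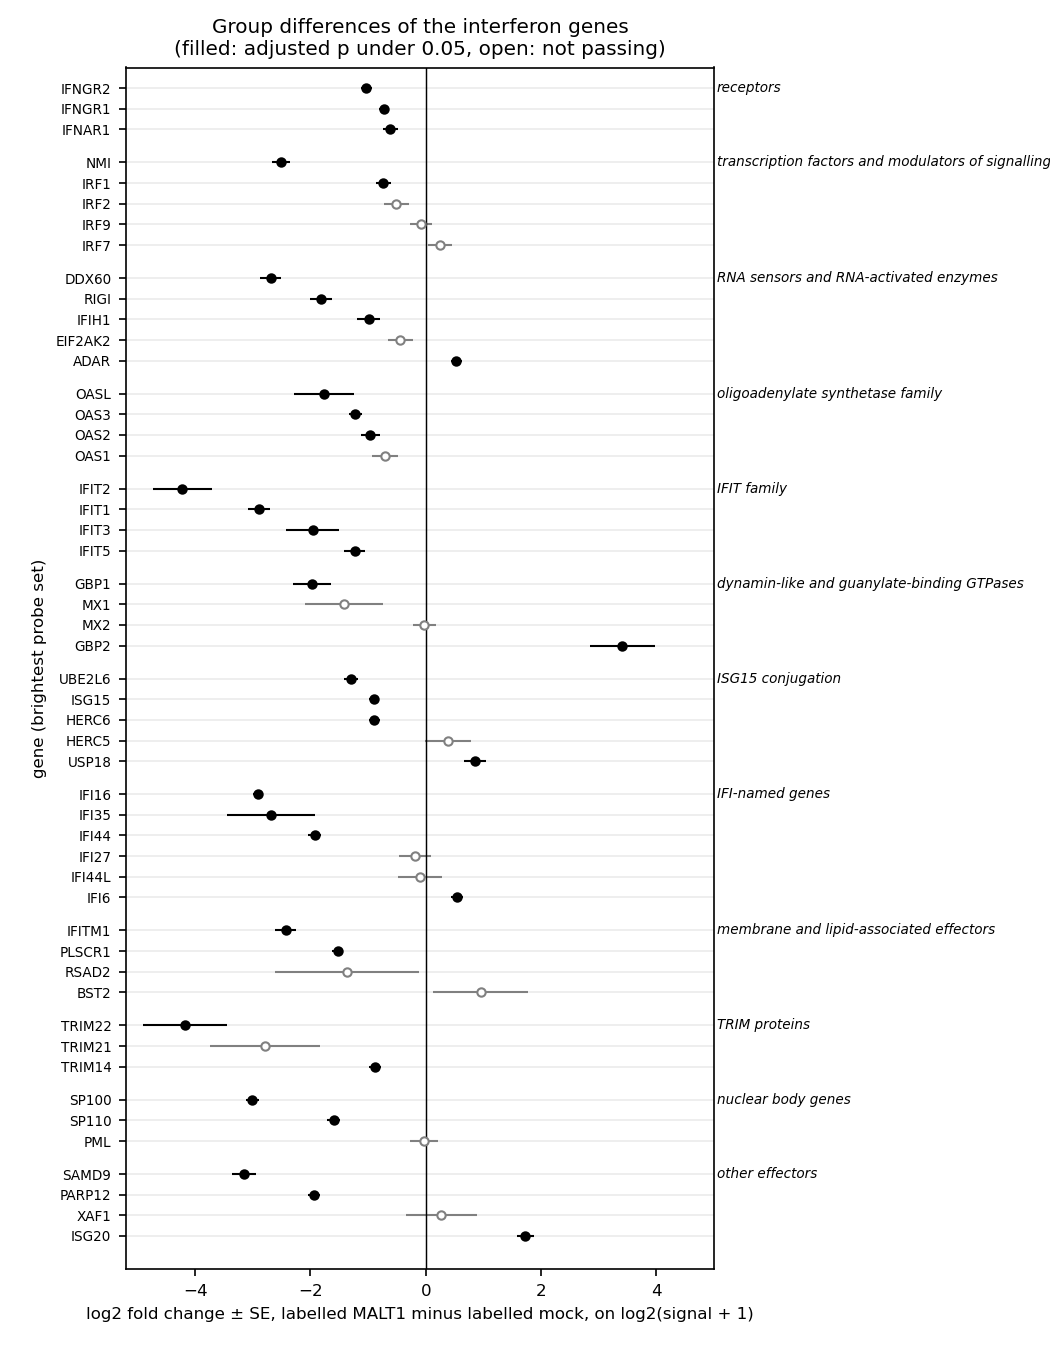
Log2 fold change of each of the 50 interferon genes with its SE (horizontal axis, log2(signal + 1) scale, labelled MALT1 minus labelled mock), grouped by role. Filled points pass an adjusted p of 0.05 and open points do not; 30 filled points lie left of 0 and 5 right of it.

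Promoter windows of these genes were searched for the sequence that the type I interferon complex binds. The genes were not chosen by this sequence. They were chosen as interferon-stimulated genes and regulators, so the share that holds it is not independent of that choice. In windows from 250 bases before to 50 bases after the gene start (RefSeq, GRCh38.p14), the core of the interferon-stimulated response element, GAAA, 2 bases of any kind and GAAA, searched on both strands, was present in 25 of 42 listed genes with an entry (59.5%), against 4.38% of all 27305 genes in the promoter table. The core of the gamma-activated sequence, TTC, 3 bases of any kind and GAA, which reads the same on both strands, was present in 12 of the 42 (28.6%), against 9.38% of all genes. The matches to these motifs overlapped in 5 of the 58 windows of the listed genes. The following stretches, from 170 bases before to 30 bases after the gene start, are those of the 5 falling genes with the largest change among genes that hold the core, and of ISG20, which holds it and rose. They are SAMD9 at chr7:93117950-93118149 on the minus strand, IFIT1 at chr10:89392453-89392652 on the plus strand, DDX60 at chr4:168318723-168318922 on the minus strand, NMI at chr2:151289639-151289838 on the minus strand, IFITM1 at chr11:313870-314069 on the plus strand and ISG20 at chr15:88638846-88639045 on the plus strand. Each is written 5′ to 3′ along its gene, and capitals mark the core on either strand.
SAMD9: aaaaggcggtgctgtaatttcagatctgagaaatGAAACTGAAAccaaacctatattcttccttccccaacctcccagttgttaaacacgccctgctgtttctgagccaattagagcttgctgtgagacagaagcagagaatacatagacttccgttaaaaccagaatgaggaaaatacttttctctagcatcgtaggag
IFIT1: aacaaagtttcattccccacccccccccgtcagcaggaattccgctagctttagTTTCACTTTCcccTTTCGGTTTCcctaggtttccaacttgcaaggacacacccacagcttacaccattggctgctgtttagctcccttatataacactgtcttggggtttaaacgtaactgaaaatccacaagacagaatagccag
DDX60: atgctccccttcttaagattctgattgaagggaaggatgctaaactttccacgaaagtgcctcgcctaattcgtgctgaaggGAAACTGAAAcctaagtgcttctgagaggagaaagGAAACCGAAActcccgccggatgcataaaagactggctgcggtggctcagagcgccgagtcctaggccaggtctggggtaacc
NMI: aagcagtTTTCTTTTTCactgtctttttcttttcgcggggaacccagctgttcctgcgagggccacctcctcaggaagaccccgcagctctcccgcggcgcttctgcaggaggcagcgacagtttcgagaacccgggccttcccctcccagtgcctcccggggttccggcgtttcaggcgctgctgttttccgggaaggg
IFITM1: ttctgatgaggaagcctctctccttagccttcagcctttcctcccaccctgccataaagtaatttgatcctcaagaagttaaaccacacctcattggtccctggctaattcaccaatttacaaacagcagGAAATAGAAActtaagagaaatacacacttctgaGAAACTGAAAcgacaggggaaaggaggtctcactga
ISG20: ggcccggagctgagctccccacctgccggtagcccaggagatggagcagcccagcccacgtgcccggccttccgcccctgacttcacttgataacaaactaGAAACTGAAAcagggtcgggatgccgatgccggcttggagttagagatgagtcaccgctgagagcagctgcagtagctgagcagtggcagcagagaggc
SAMD9 and ISG20 hold the same 10 letters, GAAACTGAAA, first base 136 bases before the start of SAMD9 and 69 bases before that of ISG20. The same letters stand 88 bases before the start of DDX60, followed by GAAACCGAAA at 53 bases, and 6 bases before the start of IFITM1, after GAAATAGAAA at 40 bases. In IFIT1 both matches lie on the opposite strand, TTTCACTTTC at 116 bases and TTTCGGTTTC at 103 bases. NMI has TTTCTTTTTC at 163 bases, in a stretch rich in T.

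Genes fell both with and without the core in their window. Of the 25 measured genes with it, 15 fell and 2 rose, with a median log2 fold change of −1.36. Of the 15 measured genes with an entry but no match, 11 fell and 1 rose, with a median of −0.89. The spans overlapped widely, from −3.15 to 1.73 with the core and from −3.01 to 0.53 without it. A match describes the letters in this window and is no evidence of binding. IRF2, IRF7, OAS2, OASL, IFIT2, MX2, GBP2, USP18, TRIM22 and PML had no entry among the promoter windows used and are in neither group.

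**Figure D3:**
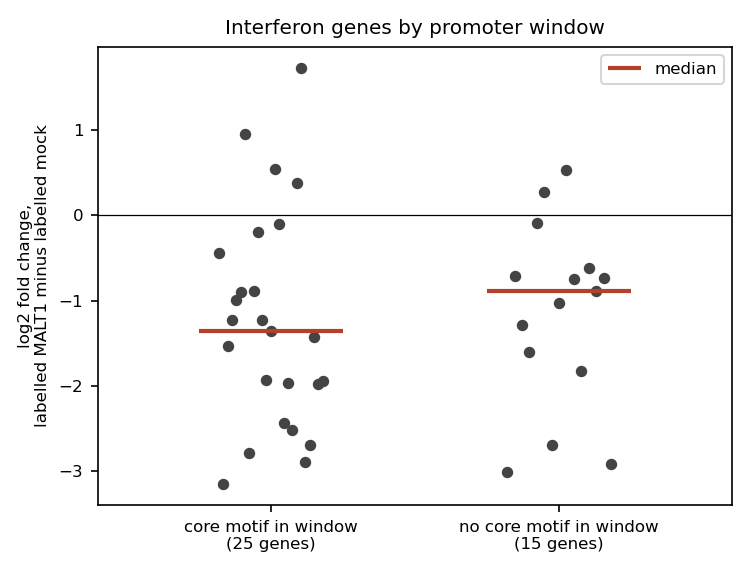
Log2 fold change, labelled MALT1 minus labelled mock (vertical axis), of the interferon genes with the core of the response element in a promoter window (25 genes, left) and without it (15 genes, right); each point is a gene and the red bar is the median, −1.36 and −0.89. The points run from −3.15 to 1.73 with the core and from −3.01 to 0.53 without it.

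All 3 receptor chains on the list fell on the arrays labelled MALT1. IFNGR1, the ligand-binding chain of the interferon gamma receptor, read 1232, 1244 and 1240 on the arrays labelled MALT1, against 2136, 2069 and 1968 on the arrays labelled mock (adjusted p = 0.00186, log2 fold change −0.73 ± 0.08 SE), and its second probe set fell too, by 0.69. Its partner chain IFNGR2 read 531, 534 and 559 on the arrays labelled MALT1, against 1061, 1092 and 1177 on the arrays labelled mock (adjusted p = 0.00075, log2 fold change −1.03 ± 0.09 SE). The groups of both genes were tight and far apart. IFNAR1, a chain of the type I receptor, read 66.7, 79.7 and 79.6 on the arrays labelled MALT1, against 122, 124 and 102 on the arrays labelled mock (adjusted p = 0.0172, log2 fold change −0.62 ± 0.13 SE). Without MALT1 replicate 1, mock replicate 1 or mock replicate 2, IFNAR1 did not pass (adjusted p = 0.0519, 0.0619 and 0.0642). IFNAR1 and IFNGR2 are next to each other in the order of protein-coding genes on chromosome 21.

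Among the transcription factors and modulators, 2 of 5 fell and the others did not pass. NMI, which binds STAT proteins and IFI35, read 150, 148 and 196 on the arrays labelled MALT1, against 1024, 934 and 866 on the arrays labelled mock (adjusted p = 0.00027, log2 fold change −2.51 ± 0.15 SE). IRF1, an activator induced by interferon gamma, averaged 73.3 ± 7.72 on the arrays labelled MALT1 and 123 ± 13.4 on the arrays labelled mock (SD, n = 3 each; adjusted p = 0.00977, log2 fold change −0.74 ± 0.13 SE). IRF9, the DNA-binding part of the type I complex, overlapped between the groups at 147, 105 and 110 on the arrays labelled MALT1 and 153, 119 and 113 on the arrays labelled mock (adjusted p = 0.777, log2 fold change −0.09 ± 0.19 SE). IRF7, which drives interferon alpha genes, and IRF2, an antagonist of IRF1, had log2 fold changes of 0.25 and −0.51 and did not pass. The arrays labelled MALT1 lay below those labelled mock without overlap for IRF2 and overlapped for IRF7.

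The cytoplasmic RNA sensors fell, while the RNA-editing enzyme ADAR rose. RIGI, which senses RNA ends made by viruses, read 69.1, 51.2 and 47.9 on the arrays labelled MALT1, against 207, 167 and 225 on the arrays labelled mock (adjusted p = 0.00173, log2 fold change −1.82 ± 0.19 SE). IFIH1, which senses long double-stranded RNA, read 22.7, 25.8 and 26.9 on the arrays labelled MALT1, against 56.5, 61.0 and 38.4 on the arrays labelled mock (adjusted p = 0.0155, log2 fold change −0.99 ± 0.20 SE). IFIH1 did not pass without MALT1 replicate 1 or mock replicate 1 (adjusted p = 0.0559 and 0.0567), and its dimmer probe set did not pass (adjusted p = 0.067). DDX60, a helicase induced with the sensors, read 38.3, 35.0 and 50.2 on the arrays labelled MALT1, against 311, 252 and 244 on the arrays labelled mock (adjusted p = 0.00039, log2 fold change −2.69 ± 0.18 SE). EIF2AK2, the kinase that halts translation on double-stranded RNA, did not pass in either of its 2 probe sets (log2 fold change −0.44 and −0.32), although the brighter did with the spread following the signal (adjusted p = 0.0405). ADAR, which edits adenosine to inosine in double-stranded RNA, averaged 1057 ± 5.30 on the arrays labelled MALT1 and 732 ± 60.6 on the arrays labelled mock (SD, n = 3 each; adjusted p = 0.00986, log2 fold change 0.53 ± 0.09 SE), but its adjusted p was 0.0719 after each array was centred on its median.

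The oligoadenylate synthetases make the messenger that activates RNase L, and 3 of the 4 family members fell. OAS3 read 78.6, 95.3 and 85.8 on the arrays labelled MALT1, against 206, 188 and 216 on the arrays labelled mock (adjusted p = 0.00109, log2 fold change −1.22 ± 0.11 SE). OAS2 averaged 23.5 ± 4.66 on the arrays labelled MALT1 and 46.0 ± 3.68 on the arrays labelled mock (SD, n = 3 each; adjusted p = 0.0103, log2 fold change −0.96 ± 0.17 SE), and it did not pass when limma let the spread follow the signal (adjusted p = 0.0523) or when its 2 probe sets were averaged (adjusted p = 0.0966). OAS1 had a log2 fold change of −0.71 and an adjusted p of 0.067. OAS1 did pass without MALT1 replicate 3 (adjusted p = 0.0309), and with median centring, quantile normalization, dim probe sets left out or log2(signal + 16) in place of log2(signal + 1) (adjusted p = 0.0094 to 0.0424). All 3 genes lie side by side on chromosome 12, and on the brightest probe set of each the groups did not overlap. On the second OAS2 probe set the groups overlapped (adjusted p = 0.194 in limma). OASL, a relative that makes no oligoadenylate, read 48.6, 40.7 and 12.8 on the arrays labelled MALT1, against 92.9, 105 and 114 on the arrays labelled mock (adjusted p = 0.0498, log2 fold change −1.77 ± 0.52 SE). That call is at the threshold: it was lost without MALT1 replicate 2 or any mock array (adjusted p = 0.0762 to 0.133) and after median centring or quantile normalization (adjusted p = 0.0526 and 0.0779), and the low reading was on MALT1 replicate 3. The second OASL probe set did not pass (adjusted p = 0.09).

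The IFIT genes encode proteins that bind viral RNA caps and ends, and all 4 fell at least 2-fold. IFIT1 read 74.5, 46.8 and 69.1 on the arrays labelled MALT1, against 476, 455 and 474 on the arrays labelled mock (adjusted p = 0.00039, log2 fold change −2.89 ± 0.19 SE). IFIT2 read 6.16, 3.10 and 14.3, all dim, on the arrays labelled MALT1, against 168, 108 and 157 on the arrays labelled mock, and was therefore at least 8.04-fold lower (adjusted p = 0.00276). The 4 genes form 1 cluster on chromosome 10. IFIT5 read 260, 210 and 166 on the arrays labelled MALT1, against 469, 517 and 487 on the arrays labelled mock (adjusted p = 0.00517, log2 fold change −1.23 ± 0.18 SE), and its second probe set fell by 0.91. IFIT3 read 29.4, 24.1 and 78.2 on the arrays labelled MALT1, against 152, 144 and 161 on the arrays labelled mock (adjusted p = 0.0243, log2 fold change −1.96 ± 0.46 SE). The reading of 78.2 on MALT1 replicate 3 widened the spread of IFIT3. Its adjusted p was 0.00115 without that array and 0.062 to 0.0773 without any one of the other 5.

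**Figure D4:**
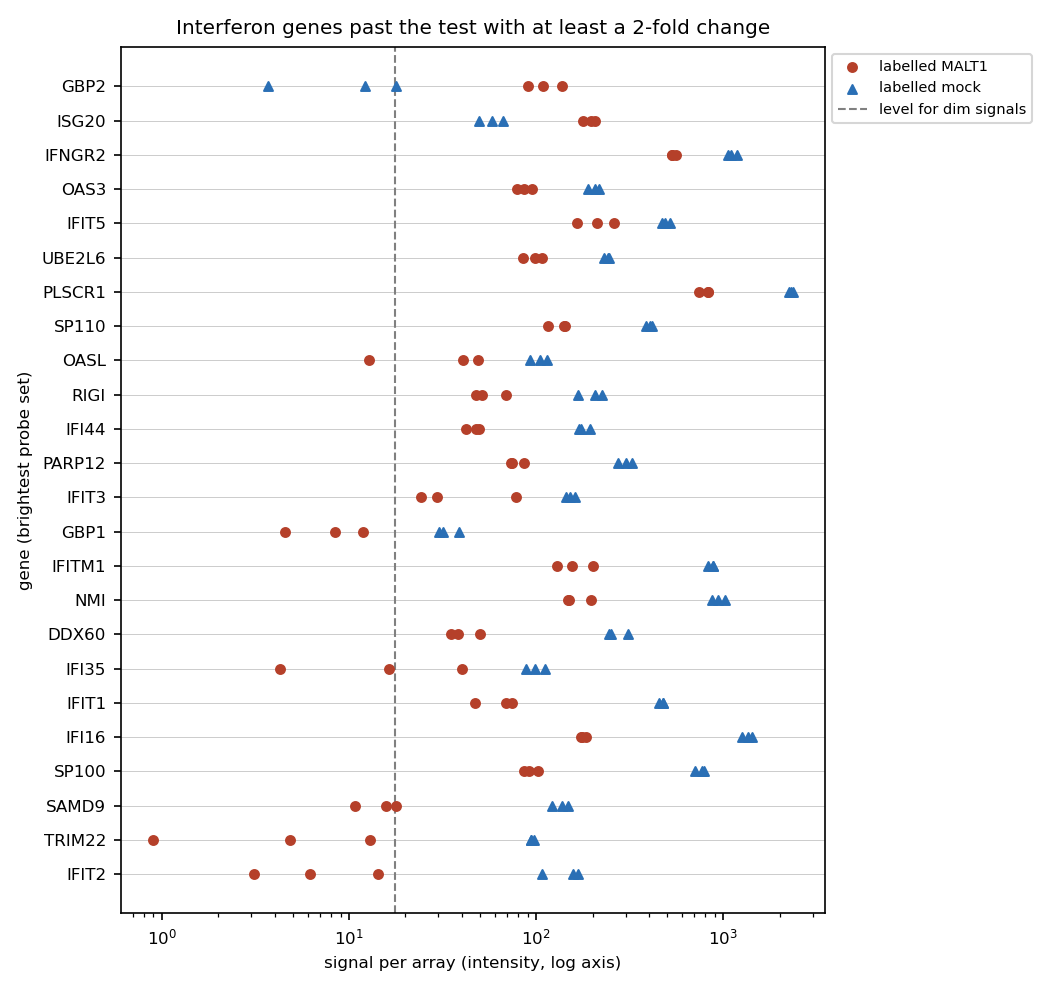
Signal on each array (horizontal log axis, linear intensity values) of the 24 interferon genes that passed an adjusted p of 0.05 with at least a 2-fold change, with red circles for the 3 arrays labelled MALT1, blue triangles for the 3 labelled mock and a dashed line at the level for dim signals, 17.6. In GBP2 and ISG20 the circles lie right of the triangles, and in the other 22 genes they lie left of them.

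The dynamin-like and guanylate-binding GTPases split. GBP2 read 138, 109 and 90.6 on the arrays labelled MALT1, against 12.2, 17.8 and 3.67 on the arrays labelled mock (adjusted p = 0.00726, log2 fold change 3.41 ± 0.56 SE). Since 2 of the 3 arrays labelled mock were dim, the size of this rise depends on the scale, and the log2 fold change was 2.26 on log2(signal + 16). GBP1, its neighbour on chromosome 1 and likewise a GTPase induced by interferon gamma, read 8.37, 11.8 and 4.52 on the arrays labelled MALT1, against 31.8, 30.4 and 38.6 on the arrays labelled mock, and was at least 1.89-fold lower (adjusted p = 0.00797), with its second probe set lower too. GBP1 counts among the genes falling at least 2-fold by its log2(signal + 1) value of −1.98, although its bound is below 2-fold. The antiviral GTPases MX1 and MX2 were close to the level for dim signals and did not pass (log2 fold change −1.42 and −0.03, adjusted p = 0.171 and 0.922).

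ISG15 is a ubiquitin-like protein that is conjugated to other proteins, and it fell together with the enzyme that carries it. ISG15 read 347, 322 and 334 on the arrays labelled MALT1, against 577, 643 and 655 on the arrays labelled mock (adjusted p = 0.00157, log2 fold change −0.90 ± 0.09 SE). UBE2L6, the conjugating enzyme, read 108, 85.3 and 99.0 on the arrays labelled MALT1, against 242, 245 and 231 on the arrays labelled mock (adjusted p = 0.00094, log2 fold change −1.29 ± 0.12 SE). HERC6 fell by 0.89 on the log2 scale (adjusted p = 0.00152), while its neighbour HERC5, the human ligase for ISG15, lay near the level for dim signals and did not pass (log2 fold change 0.38, adjusted p = 0.528). USP18, the protease that removes ISG15 and restrains the type I receptor, averaged 140 ± 16.5 on the arrays labelled MALT1 and 77.8 ± 16.3 on the arrays labelled mock (SD, n = 3 each; adjusted p = 0.0204, log2 fold change 0.85 ± 0.19 SE). The rise of USP18 did not pass without MALT1 replicate 1, MALT1 replicate 2 or mock replicate 2 (adjusted p = 0.0661, 0.0555 and 0.0659) or after centring on the median (adjusted p = 0.0639).

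Of the 6 genes named IFI, 3 fell at least 2-fold and 1 rose. IFI16, a nuclear and cytoplasmic DNA sensor, read 185, 175 and 174 on the arrays labelled MALT1, against 1428, 1348 and 1259 on the arrays labelled mock (adjusted p = 6.7e-05, log2 fold change −2.91 ± 0.09 SE). All 3 of its probe sets fell, by 2.91, 2.90 and 3.83. IFI44 read 49.5, 41.9 and 47.7 on the arrays labelled MALT1, against 174, 195 and 170 on the arrays labelled mock (adjusted p = 0.00024, log2 fold change −1.93 ± 0.11 SE). The second IFI44 probe set was dim on all 6 arrays and did not pass (adjusted p = 0.268). IFI44L, the neighbour of IFI44, was dim on all 6 arrays, as was IFI27. IFI35, the partner of NMI, read 16.3, 4.29 and 39.9 on the arrays labelled MALT1, against 98.2, 88.6 and 112 on the arrays labelled mock (adjusted p = 0.0448, log2 fold change −2.69 ± 0.76 SE). Its arrays labelled MALT1 were widely spread, and the adjusted p was 0.103 to 0.122 without MALT1 replicate 1 or any mock array. IFI6, a small membrane protein that restrains cell death, averaged 266 ± 7.96 on the arrays labelled MALT1 and 183 ± 21.4 on the arrays labelled mock (SD, n = 3 each; adjusted p = 0.0174, log2 fold change 0.54 ± 0.11 SE), a rise that was lost without MALT1 replicate 1, MALT1 replicate 2 or mock replicate 2 (adjusted p = 0.0625, 0.0502 and 0.0634) and after centring on the median (adjusted p = 0.0938).

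The membrane-associated effectors included 2 genes that fell and 2 that did not pass. IFITM1, which blocks fusion of enveloped viruses, read 156, 129 and 202 on the arrays labelled MALT1, against 876, 831 and 879 on the arrays labelled mock (adjusted p = 0.00053, log2 fold change −2.43 ± 0.18 SE). Its family is close in sequence, so the reading may include its relatives. PLSCR1, a lipid scramblase induced by interferon, read 826, 740 and 824 on the arrays labelled MALT1, against 2303, 2234 and 2346 on the arrays labelled mock (adjusted p = 0.00025, log2 fold change −1.53 ± 0.09 SE), and both of its probe sets fell. The virus tether BST2 and the antiviral enzyme RSAD2 averaged 10.8 ± 9.78 and 11.4 ± 16.3 on the arrays labelled MALT1, and 5.25 ± 5.39 and 21.4 ± 16.9 on the arrays labelled mock (SD, n = 3 each), and neither passed (adjusted p = 0.445 and 0.471). The arrays of the groups overlapped in both genes, RSAD2 was above the level for dim signals on 1 array labelled MALT1 and 2 labelled mock, and BST2 was above it on 1 array labelled MALT1 alone.

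TRIM proteins are ubiquitin ligases or adaptors of antiviral defence, and 2 of 3 fell. TRIM22 read 4.82, 0.891 and 12.9, all dim, on the arrays labelled MALT1, against 96.9, 94.1 and 93.8 on the arrays labelled mock, and was at least 5.38-fold lower (adjusted p = 0.00953). TRIM14, a mitochondrial adaptor, fell by 0.88 on its brightest probe set (adjusted p = 0.0027) and by 0.44 on another (adjusted p = 0.0366), but its 2 dimmer probe sets did not pass, nor did the average of all 4 (adjusted p = 0.344). The antibody receptor TRIM21 read 28.3, 3.00 and 45.9 on the arrays labelled MALT1, against 117, 125 and 120 on the arrays labelled mock, and did not pass (adjusted p = 0.0804). The spread of TRIM21 was on the arrays labelled MALT1, and without MALT1 replicate 2 its adjusted p was 0.0112. It also passed with the spread following the signal, on log2(signal + 16) and with dim probe sets left out (adjusted p = 0.0117, 0.0136 and 0.0498).

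Nuclear bodies are assembled by PML together with SP100, and the SP genes fell. SP100 read 102, 85.9 and 91.2 on the arrays labelled MALT1, against 770, 793 and 707 on the arrays labelled mock (adjusted p = 7.9e-05, log2 fold change −3.01 ± 0.11 SE), and 4 of its 5 probe sets fell. SP110, its relative nearby on chromosome 2, read 143, 115 and 141 on the arrays labelled MALT1, against 407, 384 and 418 on the arrays labelled mock (adjusted p = 0.00054, log2 fold change −1.60 ± 0.12 SE), with 3 of 4 probe sets lower. The 8 probe sets of PML disagreed. Its brightest averaged 39.6 ± 10.9 on the arrays labelled MALT1 and 39.5 ± 4.85 on the arrays labelled mock (SD, n = 3 each; adjusted p = 0.952), 3 others fell, by 1.87, 2.38 and 3.25, and 1 rose (log2 fold change 1.81), so no direction is given for PML. The average of all its probe sets passed as lower (adjusted p = 0.0135, log2 fold change −0.67).

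Of the remaining effectors, SAMD9 and PARP12 fell and ISG20 rose. SAMD9, a cytoplasmic restriction factor whose signal was dim on 2 of the 3 arrays labelled MALT1, read 15.8, 17.7 and 10.7 on the arrays labelled MALT1, against 122, 147 and 138 on the arrays labelled mock (adjusted p = 0.00035, log2 fold change −3.15 ± 0.21 SE). PARP12, an ADP-ribosyltransferase, read 73.4, 85.7 and 74.2 on the arrays labelled MALT1, against 324, 303 and 275 on the arrays labelled mock (adjusted p = 0.00026, log2 fold change −1.94 ± 0.11 SE). ISG20, an exonuclease that degrades single-stranded RNA, read 207, 197 and 177 on the arrays labelled MALT1, against 57.7, 66.4 and 49.3 on the arrays labelled mock (adjusted p = 0.00072, log2 fold change 1.73 ± 0.14 SE). Its second probe set rose further, averaging 135 on the arrays labelled MALT1 and a dim 2.17 on the arrays labelled mock, and was at least 7.54-fold higher. The average of both probe sets had a log2 fold change of 3.57 ± 0.13 SE, a size that depends on the value added to those dim signals. XAF1, a promoter of cell death, did not pass (log2 fold change 0.27, adjusted p = 0.785).

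Genes of the interferon pathway outside the list moved in both directions, and most did not pass. Of 51 such genes, 40 were measured, of which 10 fell, 3 rose and 27 did not pass (19.2% of all genes fell and 21.1% rose), with a median log2 fold change of −0.06. No measured interferon transcript was detectably different. Of 21 ligand genes, 14 were measured, and 0 of these passed in limma, also at an unadjusted p under 0.05. Of the 14, 7 were dim on all 6 arrays and 4 on the arrays labelled mock alone, which limits what could be detected. IFNA4, dim on all 6 arrays, averaged 13.1 ± 3.79 on the arrays labelled MALT1 and 6.13 ± 4.99 on the arrays labelled mock (SD, n = 3 each). Among 6 other receptor chains, kinases and STATs, 3 fell and 1 rose. IFNAR2, the partner of IFNAR1, averaged 208 ± 11.2 on the arrays labelled MALT1 and 369 ± 6.80 on the arrays labelled mock (SD, n = 3 each; adjusted p = 0.00154), and STAT3 fell by 0.94. JAK1, the kinase shared by the receptors, averaged 1400 ± 31.7 on the arrays labelled MALT1 and 933 ± 23.8 on the arrays labelled mock (SD, n = 3 each; adjusted p = 0.0036, log2 fold change 0.58 ± 0.08 SE).

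Of 12 genes that lead to interferon production, 5 fell, 1 rose and 6 did not pass. TBK1, the kinase that activates IRF3, averaged 1853 ± 109 on the arrays labelled MALT1 and 705 ± 98.1 on the arrays labelled mock (SD, n = 3 each; adjusted p = 0.00125, log2 fold change 1.40 ± 0.14 SE). Its relative IKBKE fell by 1.08 (adjusted p = 0.00324) and the adaptor TRAF3 by 1.04 (adjusted p = 0.00432). Of 8 negative regulators, 2 fell and 1 rose, shares close to the 19.2% and 21.1% of all genes. The phosphatases PTPN2 and PTPN1, which dephosphorylate Janus kinases and STATs, fell by 0.86 and 0.67 (adjusted p = 0.00152 and 0.0047), and TRIM27 rose (log2 fold change 0.47, adjusted p = 0.00785).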

How the data were processed

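The authors deposited 1 linear intensity value per probe set and array, already summarised over probes, with software not stated in the labels. Going by the values, every array had been scaled to a mean of 500.1 to 500.2 after trimming 2% at each end. Such scaling fixes the average signal, so changes are relative to it. The deposited table held no detection call and 22277 probe sets, of which 62 controls were left out and 22215 were tested with no filter. Of these, 19064 had 1 gene symbol, 1043 several and 2108 none, and 19052 matched the RefSeq gene table (GRCh38.p14), which gave names and gene order. Probe sets with the suffix x_at or s_at may read more than 1 transcript.

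Groups were compared on log2(signal + 1) in limma 3.58.1 (R 4.3.3; lmFit, eBayes, two-sided, Benjamini-Hochberg over all 22215), a script also tested on simulated data. Fold changes of dim genes depend on the value added before taking logs: IFIT2 went to −2.75 on log2(signal + 16), against −4.22 on log2(signal + 1), and TRIM22 to −2.36, against −4.17. A gene dim on all 3 arrays of a group has its fold as a bound, the geometric mean of the other group over 17.6, with no fold where that is under 1. Median centring, quantile normalization, log2(signal + 16), a dim filter (above 17.6 on 3 arrays), a spread trend, averaged probe sets, a replicate block and leaving out each array were tried.

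The members and lists were chosen with earlier results of these data known, also the dim level. Array values are given for members past an adjusted p of 0.05 with at least a 2-fold change, the receptors, IRF9, RIGI and IFIH1; others have up to 3 examples per role by adjusted p, with exceptions chosen after their values were seen.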

Additional observations from a re-analysis of the deposited data

How the results depend on the processing

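The direction held for 41 interferon genes followed through 6 other settings (246 values, 14 weaker and 8 newly past the threshold) and through leaving out each array (246 values, 24 weaker and 2 newly past), except IRF9, near 0 throughout (log2 fold change −0.24 to 0.05 with an array left out, 0.00 without MALT1 replicate 2 and 0.05 without mock replicate 1). Of the 10 genes whose groups overlapped, only IRF9 was among the 41. In the rest of the 41 the groups did not overlap. Their direction could therefore turn only after median centring or quantile normalization, and it did not. Leaving out an array could not turn it. No interferon gene passed in opposite directions under any of these settings. The genes that fell numbered 25 to 32 and those falling at least 2-fold 19 to 26. The 5 that rose were 2 after median centring, 2 with the replicate block and 3 to 5 with an array left out, and ISG20 and GBP2 passed in each. The median log2 fold change was −1.14 after median centring, −0.82 on log2(signal + 16), −1.22 with dim probe sets left out, −1.21 after quantile normalization and −1.06 to −0.89 with an array left out. With dim probe sets left out, 47 of the 50 genes remained, so that median covers fewer genes. Median centring moves all values of an array alike, and the value added before taking logs changes the fold changes of dim genes. The cause of the other shifts was not tested. Median centring moved the median of all probe sets to −0.05, from 0.08. Over all probe sets, 4130 rose and 3787 fell, 3179 and 4193 after median centring.

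The titles number the replicates of both groups, but same-numbered arrays did not deviate together (r = 0.0439, 0.00749 and 0.0451), so the replicate block pairs by number only. With the replicate block, 25 interferon genes fell and 2 rose, with 3013 probe sets higher and 2795 lower. Signals near 17.6 limit what can be read of MX1, MX2, HERC5, XAF1, BST2 and RSAD2. Such signals on the arrays labelled MALT1 also limit the size of some falls that passed. On log2(signal + 16), OAS2 went to −0.66 from −0.96, IFIH1 to −0.71 from −0.99, SAMD9 to −2.31 from −3.15 and IFI35 to −1.79 from −2.69.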

Other observations

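Probe sets that carry several gene symbols were used in no comparison, and 2 of them include an interferon gene of the list. The one shared by IFITM2 and IFITM1 read 178, 144 and 180 on the arrays labelled MALT1, against 720, 695 and 681 on the arrays labelled mock. The one shared by RNF31 and IRF9 read 77.2, 64.4 and 57.2 on the arrays labelled MALT1, against 85.6, 67.1 and 80.1 on the arrays labelled mock.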
